A study of Mus musculus with 8 samples.

Results

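The MS4A membrane proteins described here are 7 mouse genes, Ms4a1, Ms4a3, Ms4a4c, Ms4a6b, Ms4a6c, Ms4a6d and Ms4a7. They were found by the gene name printed for each probe in the scanner files, which gave 9 probes of the 39429 on the array, 3 of them for Ms4a4c and 1 for each other gene. MS4A proteins are small membrane proteins that cross the membrane several times, keep both ends in the cytoplasm, and often sit beside a signalling receptor. Ms4a1 encodes CD20, the B cell surface protein, and its relative Ms4a2 is the beta chain of the high-affinity IgE receptor of mast cells and basophils. Ms4a3 binds a cell cycle phosphatase and marks granulocyte and monocyte progenitors, while Ms4a4c, Ms4a6b, Ms4a6c, Ms4a6d and Ms4a7 are known from monocytes, macrophages, microglia or T cells.

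The cells were C10, a derivative of the mouse pre-B line HAFTL that carries an inducible C/EBPα and was grown in puromycin. They carried either a control shRNA or the shRNA of the line labelled Tet2 knockdown. Each line was assayed uninduced (0 h) and 24 h after estradiol (100 nM), M-CSF and IL-3 (10 ng/ml of either cytokine) were added, so all 4 groups share the line and the C/EBPα construct, and the 3 agents were given together. Each group had 2 arrays, called technical duplicates by the submitters, so every p-value below covers array-to-array spread and says nothing of variation among cultures. Tet2 has 3 probes on the array, and the brightest measured one stood for the gene. By that probe the Tet2 transcript was not lower in the labelled line (log2 difference -0.11 ± 0.10 at 0 h and 0.01 ± 0.10 at 24 h). TET2 protein was not measured. A knockdown was thus neither shown nor excluded, and a comparison of lines is a comparison of labels.

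The cells behaved by their markers as a pre-B line that gained macrophage genes. None of the 7 B lineage markers rose, and 4 fell in the control line and 2 in the labelled line, where 27.3% and 32.2% of all genes were called in either direction. Which B lineage markers were called depended on the processing. With normexp background correction and quantile normalization Pax5 lost its call in the control line (-0.94) and Blnk gained one in the labelled line (-1.04). Of 8 macrophage and monocyte markers 7 were measured and 6 rose in both lines (14.1% and 16.7% of all genes were called higher), including Csf1r, the M-CSF receptor, at 6.90 ± 0.20 log2 in the control line. Itgam did not pass (0.36 and 0.20), but was called at 1.40 and 1.38 when the kept probes of a gene were averaged, and the F4/80 gene Adgre1 was too dim to be tested. Of 6 neutrophil markers 3 passed the filter on low signal. All 3 were dim on both control arrays at 0 h, so they passed through the 24 h groups and their rise is no support for a count. Of the markers of mast cells and basophils, T cells and eosinophils, 1 of 5, 1 of 3 and 0 of 2 were measured, and none passed, although the T cell gene Cd3e (0.86 in the labelled line) was called at 1.12 without the second 0 h array of that line and at 1.03 without its first 24 h array. In such bulk RNA, fewer cells of a type and less RNA per cell cannot be told apart. The part of any of these cell types in the results below was not tested.

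The sequences below are those of the probes as the files give them, each with its place on mouse genome build mm9. They show which stretch of each transcript was interrogated, and how one Ms4a4c probe differs from the rest. Every probe is 60 bases long. For 2 probes the whole sequence is printed, and for the others 30 bases from the first base of the probe, except for Ms4a4c A_55_P2135980, where the 30 bases start at base 9. Capitals mark an unbroken alternation of G and T of 29 bases, and the other letters are in lower case.
Ms4a1 A_52_P483336, chr19:11325367-11325426, minus strand: gctgtgctttgagattctttccaaatggca
Ms4a3 A_51_P364210, chr19:11704055-11704114, minus strand: agatgaaatgcaatccttctgtcatggaaa
Ms4a4c A_55_P2135986, chr19:11493486-11493545, plus strand: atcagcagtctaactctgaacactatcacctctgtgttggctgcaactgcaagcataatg
Ms4a4c A_55_P2135980, chr19:11500839-11500898, plus strand: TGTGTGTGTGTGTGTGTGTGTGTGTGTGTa
Ms4a4c A_66_P106388, chr19:11500973-11501032, plus strand: caacactttaacatcctccattaattgtat
Ms4a6b A_55_P2180176, chr19:11604834-11604893, plus strand: tacttatttctagaatcgccagagcaaatg
Ms4a6c A_51_P193146, chr19:11545580-11545639, plus strand: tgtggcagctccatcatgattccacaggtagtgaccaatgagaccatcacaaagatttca
Ms4a6d A_51_P149714, chr19:11661426-11661485, minus strand: aatatcttaatgtgtgtattggttaatcag
Ms4a7 A_55_P1958165, chr19:11395903-11395962, minus strand: agcagagtacagctagacttgcctgaaatc

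The 9 probes lie within 379 kb of chromosome 19, on both strands. The files place the 3 Ms4a4c probes at bases 447, 825 and 959 of 1 transcript, NM_029499. The repeat probe was therefore between its other probes along the transcript. Among the 36 pairs of the 9 probes the longest stretch shared by any pair was 9 bases and the shortest 4, so none of these probes was a near copy of another. Apart from the 29-base run, the longest alternation of G and T in any of the 9 was 7 bases, in Ms4a6d. No protein sequence was used here.

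The MS4A probes were at background in pre-B cells and after induction, with 1 exception. For 6 of the 7 genes the scanner software marked no probe as well above background on any of the 8 arrays. For Ms4a4c 2 of 3 probes were likewise dim on every array, and the repeat probe was well above background on all 8. Over all probes on the array, 36.5% were well above background on no array and 43% on all 8. A dim signal sets only an upper bound on what an array can see, and absence of the transcript was not shown.

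The processed signal is the value the scanner software gives for a spot after its background steps, before any scaling between arrays, in intensity units. For the dim probes it followed the level of the array's negative controls, and it is not read here as an amount of transcript. In each sentence on a single gene below, the arrays are listed as control 0 h, control 24 h, labelled line 0 h and labelled line 24 h, 2 each. Ms4a1, the CD20 gene and the B cell member, read 6.45 and 9.28, 11.4 and 12.3, 6.99 and 6.77, and 3.62 and 11.7. Ms4a3, the progenitor gene, read 5.73 and 7.90, 10.69 and 10.6, 6.55 and 5.65, and 3.35 and 9.80. For both genes the control 24 h arrays read above the control 0 h arrays while the times overlapped in the labelled line. The lowest value of each was on the first 24 h array of the labelled line. The medians of the negative controls had the same order, so no change of either transcript was measured.

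Ms4a7, known from macrophages and microglia, read 8.99 and 7.18, 13.0 and 9.60, 5.87 and 5.25, and 3.04 and 8.85. Ms4a6b read 6.35 and 8.02, 11.8 and 10.69, 7.17 and 5.87, and 3.68 and 10.0 intensity units. Ms4a6c read 6.31 and 9.03, 11.3 and 12.0, 6.87 and 13.9, and 6.28 and 11.1. Its reading of 13.9, on 1 array of the labelled line at 0 h, was the highest among the dim probes.

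Ms4a6d, a macrophage member, read 5.39 and 7.23, 9.99 and 10.2, 7.05 and 11.4, and 3.19 and 9.14. The Ms4a4c probe at base 447 of the transcript, A_55_P2135986, read 6.39 and 8.04, 11.6 and 11.0, 7.07 and 5.74, and 4.49 and 10.1. The one at base 959, A_66_P106388, read 5.94 and 8.66, 10.72 and 11.6, 6.59 and 6.39, and 3.39 and 10.9. Both Ms4a4c probes therefore gave the same low range as the other members.

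These 64 readings ran from 3.04 to 13.9 with a median of 7.96. All 64 were below the lowest signal marked well above background on their own array, which ranged from 14.7 to 45.8. Of the 64, 61 were also below the 95th percentile of the 153 negative control spots of their array. The readings rose and fell with the array, as did the negative controls, whose medians were 6.04 and 8.11 on the control 0 h arrays and 11.0 and 10.8 on the control 24 h arrays. The first 24 h array of the labelled line had the lowest negative control median (3.44) and the dim probes there read 3.04 to 6.28, while the first 24 h array of the control line had the highest and they read 9.99 to 13.0. No fold is given for these probes, since both groups of every comparison were below background. When the filter on dim probes was dropped, 0 of the 8 probes was called by limma in any of the 5 comparisons. Of all probes, 14.3% were called in the control induction and 18.5% in the labelled line. The shares were 0.568% between the lines at 0 h, 0.52% at 24 h and 0.271% for the difference of the inductions. With all 8 probes below background in every group, the 0 calls say nothing of the genes.

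**Figure D1:**
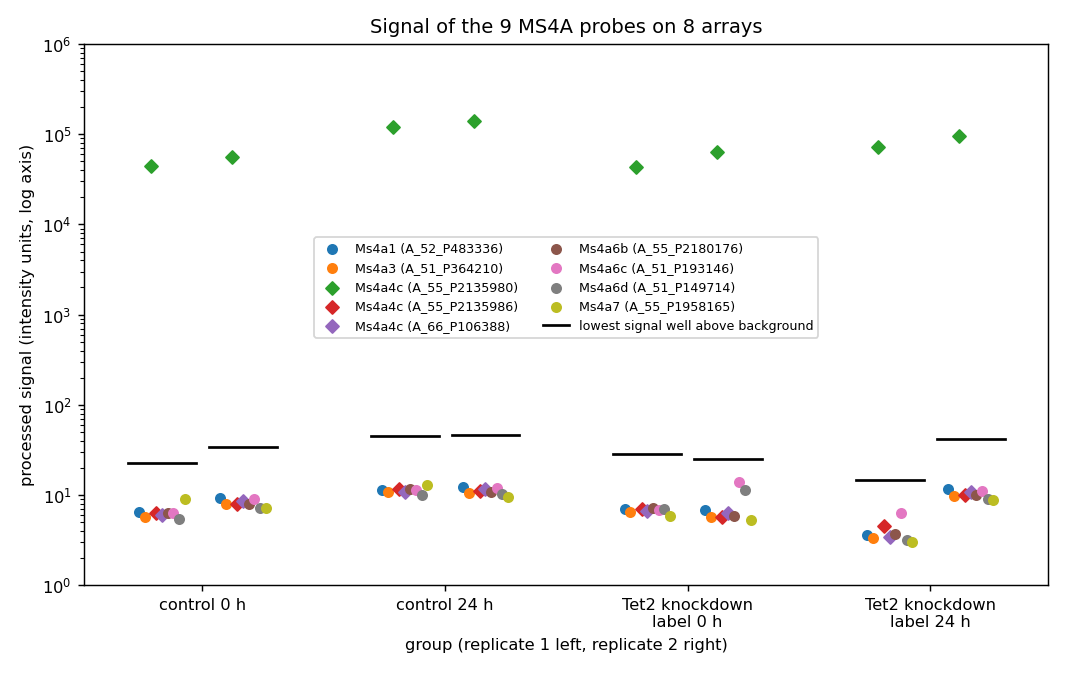
Processed signal (intensity units, log axis) of the 9 MS4A probes on each of the 8 arrays, with the 4 groups along the x axis and replicate 1 to the left; diamonds are Ms4a4c probes, circles the other genes, and each black bar is the lowest signal marked well above background on that array. 1 Ms4a4c probe lies between 43846 and 140675, and the other 8 lie between 3.04 and 13.9, under the bar on every array.

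The repeat probe of Ms4a4c rose on induction in both lines. Its processed signal was 44034 and 55919 in the control line at 0 h and 120184 and 140675 at 24 h. In the labelled line it was 43846 and 63740 at 0 h and 72739 and 95380 at 24 h. Within each line both 24 h arrays were above both 0 h arrays.

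On the scale used for the tests, the log2 signal relative to the 75th percentile of its array, the levels were 5.45 and 5.52 in the control line at 0 h and 6.78 and 6.81 at 24 h. In the labelled line they were 5.40 and 5.47, then 6.66 and 6.73. The duplicates differed by less than the step between the times. The order of the groups was control 24 h, labelled line 24 h, control 0 h, labelled line 0 h, and neither pair of neighbours at one time passed the test.

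The control induction was 1.31 ± 0.06 log2, or 2.49-fold (limma adjusted p = 2.1e-05, 95% interval 1.15 to 1.47), and the probe was higher on both slides (1.33 and 1.29). A gene was called where its adjusted p over the 16164 genes tested was under 0.05 and its change at least 2-fold, and by that rule 14.1% of all genes were called higher. The induction in the labelled line was 1.26 ± 0.06, or 2.39-fold (limma adjusted p = 2.1e-05, interval 1.10 to 1.42), where 16.7% of all genes were called higher. With quantile normalization, as in the deposited table, it fell short of 2-fold in that line, at 0.95, while the control line kept its call under every alternative tried.

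No difference between the lines passed for this probe. At 0 h the labelled line minus control was -0.05 (interval -0.21 to 0.11, limma adjusted p = 0.69), where 1.73% of genes were called in either direction. At 24 h it was -0.10 (-0.26 to 0.06, limma adjusted p = 0.35), where 2.04% were called. The inductions differed by -0.06 (-0.28 to 0.17, limma adjusted p = 0.73), against 3.83% of genes called. These intervals reach from -0.28 to 0.17 log2 and do not show that the lines were alike.

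The value of this 1 probe stands for the whole group of 7 genes in the test across genes, since it was the only one to pass the filter on low signal. It was well above background in every group. A count of members called is therefore a count over 1 probe of 9, and nothing about the other 6 genes follows from it. The other Ms4a4c probes, 1 upstream and 1 downstream of it on the transcript, were dim on every array.

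Probes with a long alternation of G and T were examined after the signals had been seen. On the whole array 52 probes held an unbroken run of at least 20 such bases, the Ms4a4c probe among them. All 52 were well above background on all 8 arrays, compared with 42.9% of the 39353 probes with no such run of G and T or of C and A. All 52 were higher at 24 h in the control line, by 1.14 to 1.81 log2 with a median of 1.44. In the labelled line all 52 were higher as well, by 1.08 to 1.74 with a median of 1.40. The Ms4a4c probe, at 1.31 and 1.26, lay inside both ranges, with 14 of the 52 below it in the control line and 8 in the labelled line.

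The complementary letters gave another picture. Of 24 probes with a run of at least 20 alternating C and A, 22 were well above background on all 8 arrays, and their median change was -0.47 in the control line and -0.31 in the labelled line. Just 1 of the 22 was above 0 in the control line. Among probes with neither run the medians were -0.01 and 0.11.

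The change was lower among probes with shorter runs, and levelled off among the longer ones. Probes with a run of 8 to 11 bases had a median control change of -0.00 and 53.1% of the 196 were well above background on all arrays. With 12 to 15 bases the median was 1.08 (33 of 36 probes measured on all arrays), and with 16 to 19 bases it was 1.44 (21 of 21), the same as for the 52 probes with 20 or more. Every measured probe with 12 to 19 bases was above 0 in the control line, though not every one in the labelled line.

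For 31 of the 52 the array held another probe of the same gene, and for 7 of the 31 every other probe was dim on all 8 arrays, as for Ms4a4c. Where the other probes had no long run and were well above background on all arrays (21 probes of 15 genes), their control changes ran from -2.84 to 2.37 with a median of 0.05. Of these 21, 11 were above 0 and 1 lay within the range of the repeat probes. Whether the signal of the Ms4a4c probe came from the Ms4a4c transcript was not tested.

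**Figure D2:**
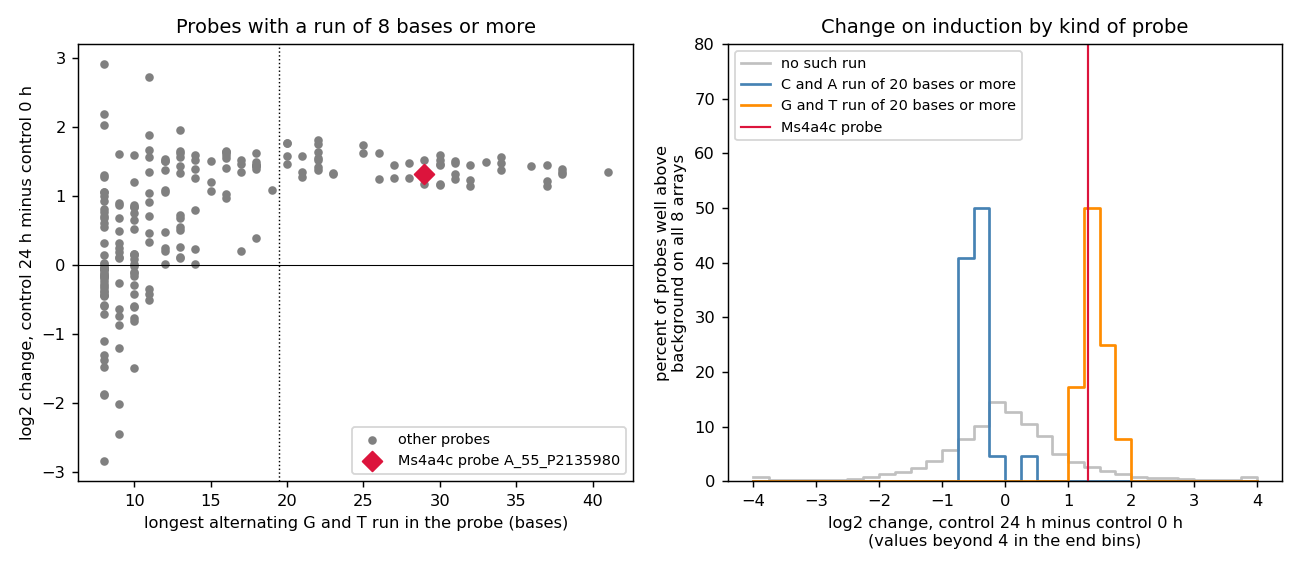
Left, the log2 change of the control line (24 h minus 0 h) of every probe well above background on all 8 arrays with a G and T run of 8 bases or more, against the length of the run; the dotted line marks 20 bases and the diamond the Ms4a4c probe. Right, the percent of such probes in each bin of that change for probes with a G and T run of 20 bases or more, a C and A run of 20 or more, or neither; all 52 G and T probes lie between 1.14 and 1.81 and the line marks Ms4a4c at 1.31.

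The tested genes most like the Ms4a4c probe over the 8 arrays, by the root mean square difference of centred log2 values, were Ccdc138 and Pttg1ip, both at 0.04. Ccdc138 changed by 1.32 in the control line and 1.33 in the labelled line, and its probe holds a G and T run of 23 bases. Pttg1ip changed by 1.35 and 1.26, and the longest run in its probe is 3 bases. Both genes were picked from all genes tested as the nearest in profile, so their likeness is no test of the repeat.

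Most probes of the relatives of the 7 genes were at background as well. Of 14 further family genes 13 were on the array, with 17 probes, and 13 of the 17 were well above background on no array. Ms4a2, the IgE receptor subunit, read 2.91 to 9.31 over the arrays, and Ms4a4b, known from T cells, read 3.23 to 10.9. Ms4a18 read 240 on 1 array of the labelled line at 0 h and 4.98 to 13.7 on the other 7. Ms4a5 read 52.5 with 1 of its probes on 1 control array at 24 h and at most 10.1 with that probe elsewhere. Neither single reading was repeated on the duplicate array.

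Tmem176b, a distant relative on chromosome 6 known from dendritic cells and macrophages, was the 1 further family gene that passed the filter. With probe A_55_P1971963 it read 85.9 and 101 in the control line at 0 h and 467 and 525 at 24 h, then 92.5 and 117, and 303 and 373, in the labelled line. Every 24 h array was above every 0 h array. On the log2 scale it rose by 2.34 ± 0.06 in the control line (limma adjusted p = 3.3e-06) and by 2.30 ± 0.06 in the labelled line (limma adjusted p = 3.0e-06). The inductions differed by -0.04 (interval -0.27 to 0.19). Its other probe was well above background on 1 array, and Tmem176a on none.

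Partners of MS4A proteins were measured in greater number, from a list chosen for their known contacts. Among 11 B cell surface and signalling genes around CD20, 10 were tested, 3 rose and 2 fell in the control line (background 27.3% called in either direction), with a median of 0.09 against 0.00 for all genes. In the labelled line 3 rose and 1 fell (background 32.2%), with a median of 0.19 against 0.14. Cd40 is 1 of the 3 that rose in each line. It passed the filter on low signal only through the 24 h groups, so its rise is no support for a count. Lyn, a kinase of the B cell receptor, rose by 2.66 ± 0.08 in the control line and 2.15 ± 0.08 in the labelled line. The tetraspanin Cd53 rose by 2.34 ± 0.07 and 2.22 ± 0.07.

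Cd40, a costimulatory receptor that associates with CD20, was well above background on no control array at 0 h. It was at least 22.2-fold higher at 24 h in the control line (limma adjusted p = 0.0036), with the dim arrays set to the lowest value measured well above background. In the labelled line 1 of the 2 arrays at 0 h measured it, and the fitted change was 6.32 ± 1.04. The labelled line minus control at 24 h was 1.38 ± 1.04 for Cd40 and not called, where 2.04% of all genes were called. It was called at 1.26 with normexp and quantile normalization or the deposited table, and at 1.24 with normexp and the 75th percentile. Cr2, a complement receptor, fell in both lines (-1.41 and -1.15 log2), and the tetraspanin Cd37 fell in the control line (-1.14) and stood at -0.41 in the labelled line, short of 2-fold. Cd22, Cd79a, Cd79b, Cd81 and Syk lay between -0.55 and 0.93 in both lines and none was called. Syk, at -0.20 in both lines, was called at -1.01 and -1.32 when the kept probes of a gene were averaged. Blk was too dim to be tested. Ms4a1 itself was at background at both times.

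For the IgE receptor, to which Ms4a2 belongs, Fcer1a was too dim to be tested. Fcer1g, the gamma chain shared with other Fc receptors, rose by 8.32 ± 0.39 in the control line and 8.06 ± 0.39 in the labelled line (limma adjusted p = 1.8e-05 and 1.7e-05). Both partners of MS4A3 fell in both lines, where 27.3% and 32.2% of all genes were called in either direction. Cdkn3, the phosphatase it binds, changed by -2.52 in the control line and -2.70 in the labelled line, and Cdk2, the kinase that phosphatase acts on, by -1.38 and -1.94 (log2). The median over all genes was 0.00 and 0.14.

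Of 4 other partners 3 were tested and 2 rose in both lines, against 14.1% and 16.7% of all genes called higher. Clec7a, the beta-glucan receptor that MS4A4A associates with, rose by 3.79 ± 0.08 and 4.17 ± 0.08. Tyrobp, the adaptor of TREM2, rose by 8.82 ± 0.10 in the control line and 10.06 ± 0.10 in the labelled line, while Trem2 itself was too dim to be tested. Tnfrsf18, which encodes the receptor GITR, was -0.82 in the control line and 0.22 in the labelled line, and was called in neither.

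In the fit reported here Tyrobp and Tnfrsf18 were the partners called between the lines. Of all genes, 1.73% were called between the lines at 0 h and 3.83% for the difference of the inductions. At 0 h Tyrobp was lower in the labelled line (-1.02 ± 0.10 log2, limma adjusted p = 0.005) and so was Tnfrsf18 (-1.23 ± 0.11, limma adjusted p = 0.0044). Their inductions differed by 1.24 ± 0.14 and 1.05 ± 0.16. With normexp background correction and quantile normalization all 4 of these values fell under 2-fold, to -0.65, -0.86, 0.63 and 0.70. The 0 h values were -0.74 for Tyrobp and -0.95 for Tnfrsf18 with normexp and the 75th percentile. That of Tyrobp was also under 2-fold with median scaling (-0.95), with quantile normalization of the processed signal (-0.94) and without the first control 0 h array (-0.89).

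Transcription factors known to act at the Ms4a1 promoter moved in both directions. Of 6 tested, 2 rose and 3 fell in each line, against 27.3% and 32.2% of all genes called in either direction. Spi1, which encodes the myeloid and B cell factor PU.1, rose by 1.88 ± 0.10 and 2.06 ± 0.10, and Pou2f2, which encodes the octamer factor OCT2, by 1.70 ± 0.14 and 1.84 ± 0.14. Irf4 changed by -1.91 and -1.18 log2, the E protein gene Tcf3 by -1.97 and -1.90, and Foxo1 by -2.08 and -1.88. Usf1 was -0.06 and 0.69 and was not called. Over the same arrays Ms4a1 read 3.62 to 12.3 intensity units, below the background threshold on each array.

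**Figure D3:**
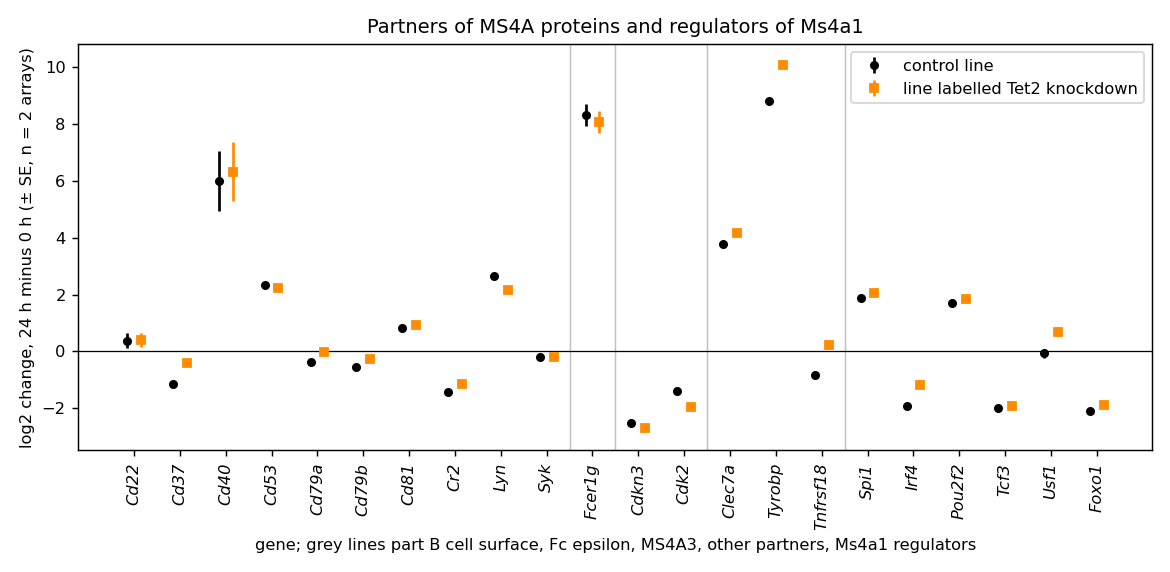
Log2 change from 0 h to 24 h (± SE, n = 2 arrays per group) of the tested partners of MS4A proteins and regulators of Ms4a1, with the control line as black circles and the line labelled Tet2 knockdown as orange squares; grey lines part the groups. Tyrobp is the highest at 8.82 and 10.06, Cdkn3 the lowest at -2.52 and -2.70, and Cd40 is drawn at its fitted value although it was dim on both control arrays at 0 h.

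Several genes around the MS4A cluster were measured. Within 500 kb of the member probes on chromosome 19 the array held 58 genes, of which 20 were MS4A genes and 38 were others. Of the 38, 12 were tested and 23 were dim on all arrays, among them 8 of 11 olfactory receptor genes. In each line 2 of the 12 rose and 4 fell (background 27.3% and 32.2%), and no neighbour was called between the lines (background 1.73%, 2.04% and 3.83%). Slc15a3, a lysosomal peptide and histidine transporter, rose by 3.41 ± 0.08 in the control line and 3.19 ± 0.08 in the labelled line. Tmem132a, next to it, fell (-3.77 and -2.82 log2), as did Tmem109 (-1.09 and -1.46). Between the lines Tmem132a stood at 0.85 at 24 h (limma adjusted p = 0.0079), short of 2-fold. Its inductions differed by 0.95 (limma adjusted p = 0.015), also short of it. That difference was 1.06 without the first control 24 h array and 1.03 without the first 0 h array of the labelled line. Prpf19, a splicing factor, fell as well (-1.18 and -1.99), and its control call was lost without the second control 0 h array (-0.89), without either control 24 h array (-1.16 and -1.19) and with no filter on dim probes. A_55_P2008244, a probe with no gene name, lies between the Ms4a4c and Ms4a6c probes and also fell (-1.11 and -1.77). Cd6, a T cell receptor of the scavenger family, was 0.10 and -0.25 and not called.

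**Figure D4:**
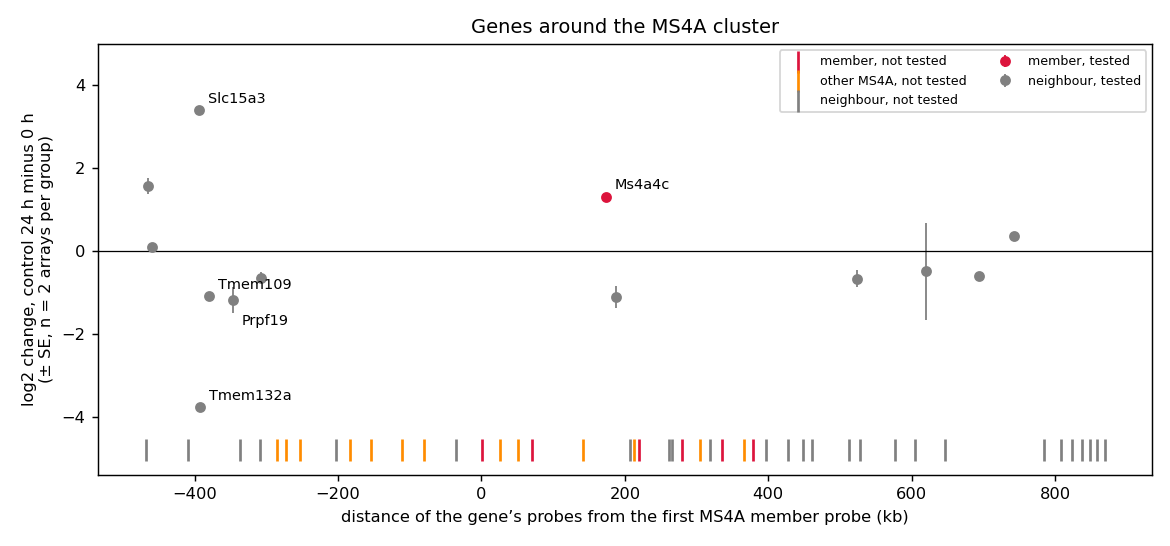
Log2 change of the control line from 0 h to 24 h (± SE, n = 2 arrays per group) of each tested gene within 500 kb of the member probes, against the distance of its probes from the first member probe in kb; ticks along the bottom are genes that were not tested. Ms4a4c is the only MS4A gene tested, at 1.31, and Slc15a3 at 3.41 and Tmem132a at -3.77 lie to its left. The point at -1.11 to its right, inside the span of the member probes, is A_55_P2008244, a probe with no gene name.

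C/EBPα, the induced factor, binds the letters TTNNGNAA. Promoters from RefSeq (GRCm38.p6, 250 bases before to 50 after the start) were matched for 5 of the 7 genes, 6 promoters in all, with Ms4a1 and Ms4a6d not matched. On either strand TTNNGNAA was in 6 of the 6, and in 40.7% of all 32851 promoters. Its stricter form TTGCNNAA, whose reverse complement is a case of the first, was in Ms4a3 alone of the 5 genes, and in 10.8% of all promoters. The PU.1 letters GAGGAA were in 1 promoter each of Ms4a3, Ms4a4c and Ms4a7 and in 28.3% of all promoters, and the octamer ATTTGCAT was in Ms4a4c and in 1.74% of all. These are matches of letters and not sites.

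The first 250 bases of the Ms4a4c window, chr19:11407411-11407710 on the plus strand of GRCm38.p6, are printed because this was the only member with a measured probe. Capitals mark matches to TTNNGNAA and GAGGAA on either strand, and the octamer overlaps the first of them.
Ms4a4c promoter: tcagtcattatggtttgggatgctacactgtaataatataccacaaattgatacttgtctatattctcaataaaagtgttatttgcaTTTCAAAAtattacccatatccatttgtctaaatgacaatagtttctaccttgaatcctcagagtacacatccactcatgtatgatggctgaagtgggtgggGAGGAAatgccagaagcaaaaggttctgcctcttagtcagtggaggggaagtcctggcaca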

How the data were processed

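Gene expression was measured on 8 1-colour Agilent mouse arrays (design 026655), extracted with Feature Extraction 10.7.3.1 (protocol GE1_107_Sep09) and annotated on mm9 (NCBI 37), per the file headers. In the deposited scanner output, intensity per spot is the software's processed signal, given after its background steps. In the deposited value table the log2 values of each column have a median of 6.84, and a recomputation with normexp (offset 50) and quantile normalization matched them. The submitters' processing notes name limma with no version. Per array 47.4% to 55.6% of the 43020 probe spots were well above background, 155 to 219 outlier spots were left out, and none was saturated.

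The values used were log2 processed signal minus the log2 of each array's 75th percentile, with spots of a probe averaged. A probe entered the fit if both arrays of some group were well above background (20318 of 39429, 51.5%), and the brightest such probe represented a gene, giving 16164 genes. RefSeq names were matched through accessions (11628 genes), symbols (582) or synonyms (89), and the file's name was used for 3864. limma 3.58.1 in R 4.3.3 fitted 4 group means with 4 residual and 1.51 prior degrees of freedom, and Benjamini-Hochberg adjustment ran over all genes. The ± values are standard errors, and the median was 0.10 log2 for a comparison of 2 groups. The fit was tested on simulated data. The number of arrays limits the precision.

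The genes named are all 7 members, the listed relatives, partners, regulators, markers, tested neighbours within 500 kb, the 2 genes nearest in profile and Tet2, and within a list those past the threshold with the largest changes and the exceptions. One gene of these lists was left out of every count and is not reported here. The members and lists were chosen with earlier results of these data known. Alternatives tried were other background corrections, scalings, filters, probe choices, the deposited table, the slide as a block, each array left out, and no fold threshold. Replicate 1 of every group was on one slide and replicate 2 on the other. The differences between replicates correlated across genes by 0.30 to 0.41 between groups.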

Additional observations from a re-analysis of the deposited data

Results flagged for a closer look

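For 2 genes among the partners of MS4A proteins the inductions differed between the lines by the interaction test of limma. For Tyrobp, the adaptor of TREM2, the difference was 1.24 ± 0.14 log2 (adjusted p = 0.0087), with changes of 8.82 in the control line and 10.06 in the labelled line. The levels at 0 h were -1.54 and -1.80 on the control arrays and -2.68 and -2.70 in the labelled line, relative to the array's 75th percentile. For Tnfrsf18, the GITR gene, the difference was 1.05 ± 0.16 (adjusted p = 0.016), with -0.82 in the control line and 0.22 in the labelled line. Its 0 h levels were -1.96 and -1.73 in the control line and -3.12 and -3.03 in the labelled line. Both differences were called against 3.83% of all genes.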

How the results depend on the processing

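The genes called between the lines at 0 h, between the lines at 24 h and for the difference of the inductions numbered 280, 330 and 619. They numbered 94, 163 and 289 with normexp and quantile normalization or the deposited table, 99, 154 and 282 with normexp and the 75th percentile, and 157, 147 and 372 with probes well above background on all 8 arrays. Without a filter the last 2 were 187 and 121, and with median scaling the last was 212. With adjusted p alone the counts were 9991 and 11021 for the control and labelled inductions (4409 and 5199 with the fold threshold), and 2178, 2236 and 2627 for the others. Leaving out 1 array in turn gave 4297 to 4415, 5004 to 5261, 242 to 302, 235 to 338 and 412 to 647, with 412 without the second control 24 h array. With the replicate block, which is also the slide, the counts were 4468, 5273, 291, 359 and 677, the Ms4a4c control induction was 1.31 ± 0.04 (adjusted p = 2.7e-05), and no call of a named gene changed. Over 19 alternatives the Ms4a4c probe was called in 19 for the control induction (1.16 to 1.35) and in 16 for the labelled line (0.93 to 1.30), with 0.95 under normexp and quantile normalization or the deposited table and 0.93 under quantile normalization of the processed signal. It was called in 0 of 19 in each comparison of the lines. The 19 are not separate checks. The deposited table repeats the run with normexp and quantile normalization. The filters, probe choices, block and missing fold threshold left the size of both changes of this probe as it was. Over all single genes 57 values lost their call and 58 gained one among 4445, and no called value changed sign. Tyrobp's difference of inductions lost its call under 6 alternatives and that of Tnfrsf18 under 10, and the Cr2 change in the labelled line was -0.94 with normexp and the 75th percentile. The all-gene median, 0.00 for the control induction and 0.14 for the labelled one, was -0.11 in both with median scaling and 0.41 and 0.49 with no filter on dim probes. The causes were not tested. Readings below background limit what can be said of 6 of the 7 genes.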
